A study of Mus musculus with 32 samples.

Results

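The 10 genes described here are read mainly in macrophages, the resident phagocytes of tissues: C1qa, C1qb, C1qc, Aif1, Tyrobp, Csf1r, Cx3cr1, Cd68, Fcer1g and Trem2. They were taken by symbol, through the RefSeq accession that each array probe carries, out of 20660 gene symbols with a probe. Of the 10 genes, 9 were measured, by 12 probes. No probe carried an accession matched to Cd68, and Cd68 was not analysed here.

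The samples were 28 RNA preparations from mice of the 129+Ter/SvJcl background, read on one-colour arrays of mouse genes. Passaged spheres were 4 cultures carried through 5 passages, each read on 2 arrays that were averaged. Primary spheres were 8 cultures grown for 8 days. TH-MYCN SMG were 8 superior mesenteric ganglia, a sympathetic ganglion of the abdomen, from hemizygous mice aged 3 weeks, and wild-type SMG were 8 ganglia from wild-type mice of that age. Both kinds of sphere came from TH-MYCN hemizygous mice of that age, and no wild-type spheres were analysed here. TH-MYCN mice carry a MYCN transgene behind a tyrosine hydroxylase promoter, which is active in cells that make catecholamines, and they develop neuroblastoma.

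C1q is the recognition molecule of the classical complement pathway, assembled from the A, B and C chains that C1qa, C1qb and C1qc encode. In many tissues its main source is the macrophage. Tyrobp (DAP12) and Fcer1g (the Fc receptor gamma chain) are short membrane adaptors whose ITAM motifs recruit Syk-family kinases. Trem2, a receptor for lipids and cell debris, signals through Tyrobp. Csf1r is the receptor for the growth factors Csf1 and Il34, on which most macrophages depend, Cx3cr1 is the receptor for the neuronal chemokine Cx3cl1, and Aif1 (Iba1) is an actin-bundling protein widely used to stain macrophages and microglia.

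The region before the gene's start is shown here for measured genes in which it held GAGGAA. PU.1, the ETS factor of the myeloid lineage, binds sequences built around these letters, and its part was not tested. RefSeq promoter windows of the GRCm38.p6 assembly were searched for 7 of the 10 genes. They ran from 250 bases before to 50 bases after the gene's start. Csf1r was left out by name before the search, and C1qa and Tyrobp had no window in the set. GAGGAA was present on either strand in 5 of the 7 windows, against 28.3% of all 32851 mouse windows of that length. The 5 include Cd68, which was not measured here. GAGGAA was absent from the windows of Cx3cr1 and Fcer1g. Its first letter as printed stood at -30 in C1qb (minus strand, chr4:136886151-136886450), at -193 in C1qc (minus strand, chr4:136892865-136893164), at -7 in Aif1 (minus strand, chr17:35176003-35176302) and at -40 in Trem2 (plus strand, chr17:48346151-48346450), counted from the gene's start. Each is written along its gene's strand, 5′ to 3′, and capitals mark GAGGAA or its reverse complement.
C1qb: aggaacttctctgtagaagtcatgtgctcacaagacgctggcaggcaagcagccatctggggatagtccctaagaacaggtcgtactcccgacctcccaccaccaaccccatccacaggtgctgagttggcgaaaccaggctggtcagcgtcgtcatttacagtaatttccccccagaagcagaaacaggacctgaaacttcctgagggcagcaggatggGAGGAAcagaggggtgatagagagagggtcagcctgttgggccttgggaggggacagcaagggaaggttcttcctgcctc
C1qc: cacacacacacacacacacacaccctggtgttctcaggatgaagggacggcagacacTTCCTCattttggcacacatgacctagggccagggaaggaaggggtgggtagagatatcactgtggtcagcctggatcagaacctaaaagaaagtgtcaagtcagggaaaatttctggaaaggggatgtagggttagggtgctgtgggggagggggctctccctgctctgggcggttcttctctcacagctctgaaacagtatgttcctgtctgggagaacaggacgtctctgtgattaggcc
Aif1: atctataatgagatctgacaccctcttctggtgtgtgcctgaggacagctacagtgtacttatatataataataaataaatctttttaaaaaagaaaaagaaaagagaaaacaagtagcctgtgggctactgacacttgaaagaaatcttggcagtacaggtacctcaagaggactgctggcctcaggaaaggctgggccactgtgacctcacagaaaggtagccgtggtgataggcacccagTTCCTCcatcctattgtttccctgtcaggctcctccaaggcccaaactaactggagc
Trem2: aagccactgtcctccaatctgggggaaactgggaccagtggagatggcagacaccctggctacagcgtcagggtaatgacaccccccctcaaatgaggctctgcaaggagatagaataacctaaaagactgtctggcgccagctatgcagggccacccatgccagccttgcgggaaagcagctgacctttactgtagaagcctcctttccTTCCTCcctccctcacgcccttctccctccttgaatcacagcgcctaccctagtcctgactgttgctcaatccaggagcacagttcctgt

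Other letters searched on both strands were TGANTCA, the AP-1 motif, found in Trem2 and Cd68 (2 of 7 windows, against 7.81% of all windows) and not overlapping GAGGAA there, the ETS-IRF composite motif, found in Cd68 (1 of 7, against 2.72%), where it overlaps GAGGAA, and CACGTG, the E-box bound by MYC proteins, found in 0 of 7 (7.15% of all). A match describes letters in these windows and not bound sites.

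A level below is log2 of the processed signal relative to the 75th percentile of its array, so 0 is a fairly bright gene and levels of different probes are not set against each other. The 75th percentile itself was a signal of 323 to 539 in passaged spheres, 464 to 564 in primary spheres, 840 to 1358 in TH-MYCN SMG and 523 to 989 in wild-type SMG. Spots well above background made up 49.0% to 53.9% of those in passaged spheres, 57.0% to 59.7% in primary spheres, 59.1% to 64.1% in TH-MYCN SMG and 60.4% to 65.7% in wild-type SMG. Slides 1 and 2 each held 4 TH-MYCN and 4 wild-type SMG, and slides 3 and 4 held the spheres. The arrays were checked against lists of macrophage genes: of 29 other macrophage genes, 4 or 5 were well above background in each passaged sphere, 6 to 9 in each primary sphere, 26 to 28 in each TH-MYCN SMG and 24 to 28 in each wild-type SMG. The labels do not say whether the samples of a group came from separate animals, so the p-values measure the spread between these samples.

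**Figure D1:**
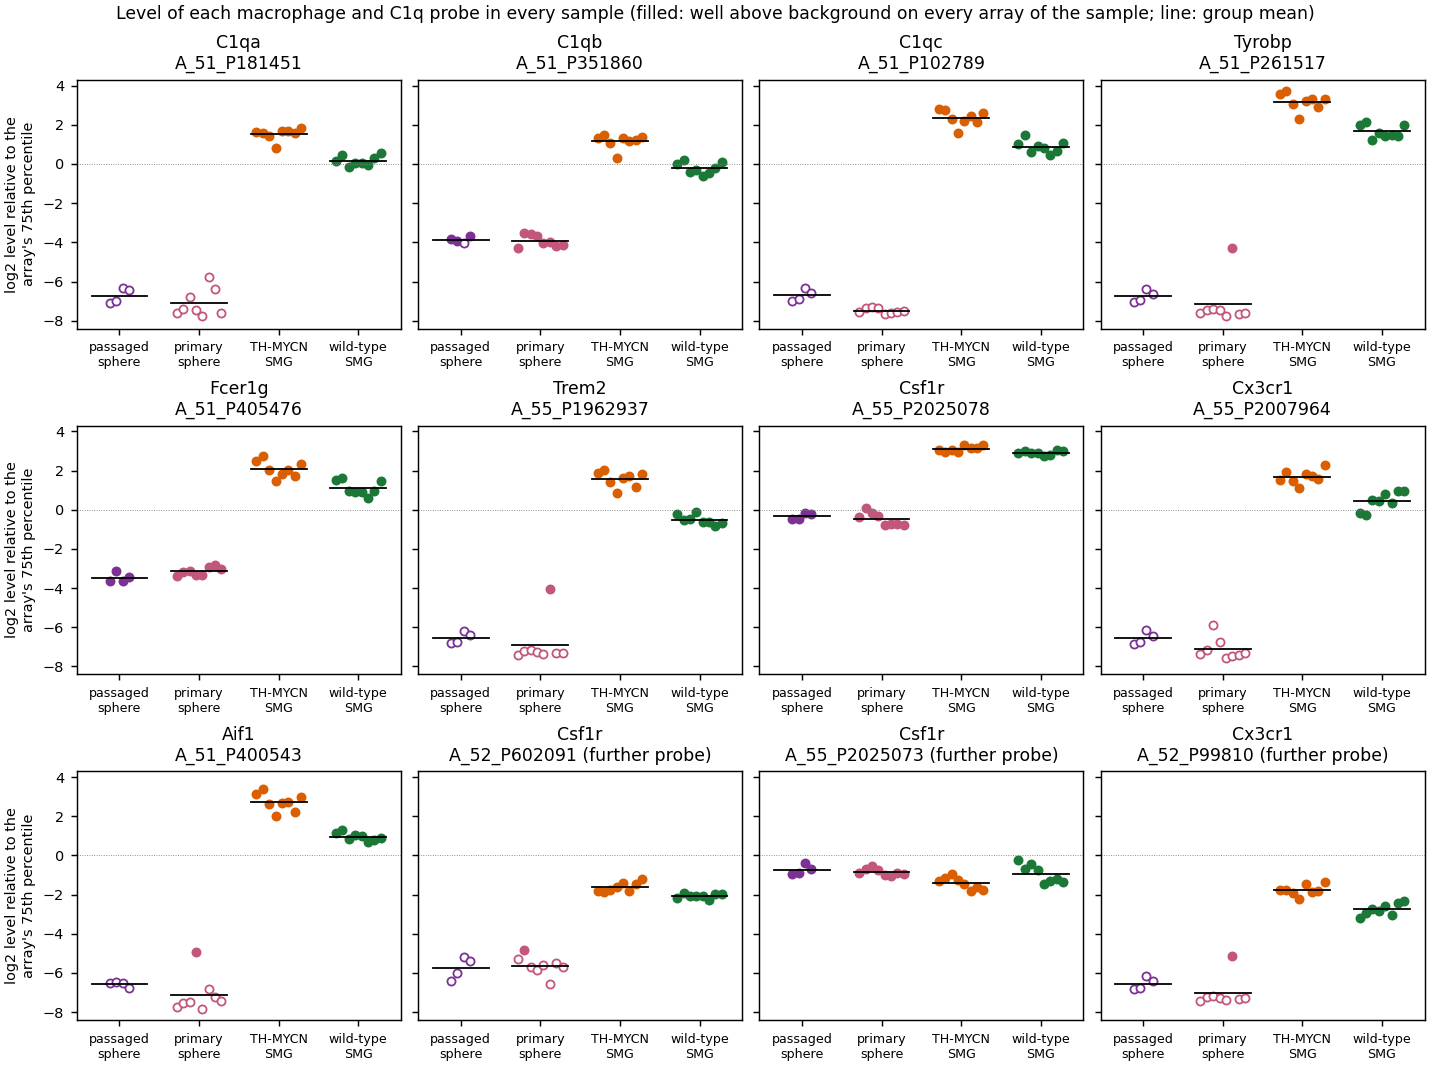
Level of each of the 12 probes in every sample, in log2 units relative to the 75th percentile of the array. Points are samples, filled where every array of the sample read the probe well above background, and lines are group means; C1qa, for example, read 0.81 to 1.83 in TH-MYCN SMG and -0.16 to 0.55 in wild-type SMG, and was not well above background in any sphere.

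Ganglia that carried the transgene were compared first with ganglia that did not. All 9 measured genes were higher in TH-MYCN SMG (limma, two-sided, adjusted p under 0.05), where 21.9% of all 15826 tested genes were called higher, 43.8% lower and 65.7% either way. All 9 were well above background on all 16 SMG arrays, so none was kept through 1 group alone. Their median log2 difference was 1.38, against -0.22 for all tested genes. The genes had been chosen with earlier results of these data known. For 7 of the 9 every TH-MYCN SMG lay above every wild-type SMG, against 9.16% of all tested genes (12.4% lay without overlap the other way). In whole tissue, more cells of a type and more RNA per cell cannot be told apart.

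The 3 chains of C1q rose by similar amounts. C1qa read 0.81, 1.59 and 1.83 (lowest, median and highest of 8) in TH-MYCN SMG, against -0.16, 0.11 and 0.55 in wild-type SMG. C1qb read 0.31, 1.26 and 1.50 in TH-MYCN SMG, against -0.62, -0.27 and 0.21 in wild-type SMG. C1qc read 1.60, 2.38 and 2.83 in TH-MYCN SMG, against 0.48, 0.87 and 1.45 in wild-type SMG. None of the 3 chains overlapped between the groups, and TH-MYCN SMG 4 was the lowest TH-MYCN ganglion for each. The log2 differences were 1.35 (SE 0.14, limma adjusted p = 6.28e-07) for C1qa, 1.38 (SE 0.16, limma adjusted p = 3.08e-06) for C1qb and 1.48 (SE 0.17, limma adjusted p = 2.81e-06) for C1qc. As ratios these are 2.56-fold, 2.60-fold and 2.79-fold. The 3 genes neighbour each other in the RefSeq gene table of GRCm38.p6.

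Both ITAM adaptors rose, Tyrobp further than Fcer1g. Tyrobp averaged 3.17 ± 0.43 in TH-MYCN SMG and 1.67 ± 0.33 in wild-type SMG (SD, n = 8 each), with ranges of 2.32 to 3.72 in TH-MYCN SMG and 1.25 to 2.16 in wild-type SMG that did not overlap. Its difference was 1.50 (SE 0.18, limma adjusted p = 5.27e-06). Fcer1g averaged 2.09 ± 0.42 in TH-MYCN SMG and 1.12 ± 0.37 in wild-type SMG (SD, n = 8 each), a difference of 0.97 (SE 0.19, limma adjusted p = 0.000293). Here the groups overlapped: TH-MYCN SMG 4 read 1.46, while wild-type SMG 1 and 2 read 1.53 and 1.64.

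Trem2, the receptor that signals through Tyrobp, had the largest difference of the 9 genes. It read 1.87, 2.02, 1.43, 0.84, 1.63, 1.71, 1.16 and 1.82 in TH-MYCN SMG 1 to 8, against -0.20, -0.53, -0.47, -0.14, -0.61, -0.64, -0.83 and -0.65 in wild-type SMG 1 to 8. Even the lowest TH-MYCN ganglion, SMG 4, stood above the highest wild-type one. The difference was 2.07 (SE 0.16, limma adjusted p = 1.56e-08), a 4.19-fold rise. Aif1 followed, with 3.15, 3.37, 2.64, 2.03, 2.69, 2.73, 2.24 and 3.00 in TH-MYCN SMG 1 to 8, against 1.14, 1.31, 0.84, 1.03, 1.01, 0.68, 0.77 and 0.87 in wild-type SMG 1 to 8. Its groups did not overlap, and it rose by 1.78 (SE 0.17, limma adjusted p = 2.46e-07), or 3.43-fold.

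The receptors Cx3cr1 and Csf1r differed in how far they moved. Cx3cr1 averaged 1.68 ± 0.35 in TH-MYCN SMG and 0.44 ± 0.46 in wild-type SMG (SD, n = 8 each), a rise of 1.23 (SE 0.19, limma adjusted p = 5.42e-05) with no overlap. A second Cx3cr1 probe, A_52_P99810, rose by 0.99 (SE 0.14, limma adjusted p = 2.19e-05 over all 20884 tested probes). Csf1r, by its brightest probe, A_55_P2025078, averaged 3.12 ± 0.14 in TH-MYCN SMG and 2.91 ± 0.11 in wild-type SMG (SD, n = 8 each), and its groups overlapped. The difference of 0.21 (SE 0.07, limma adjusted p = 0.0224) is a 1.15-fold rise.

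The 3 probes of Csf1r did not move together. Against 0.21 for the brightest, A_52_P602091 rose by 0.45 (SE 0.10, limma adjusted p = 0.000907) and A_55_P2025073 was lower, by -0.48 (SE 0.19, limma adjusted p = 0.0310). A_55_P2025073 read -1.84 to -0.94 in TH-MYCN SMG and -1.43 to -0.23 in wild-type SMG. It also parted by slide, with means of -1.17 ± 0.17 and -0.53 ± 0.25 in TH-MYCN and wild-type SMG of slide 1 and of -1.66 ± 0.18 and -1.34 ± 0.09 in those of slide 2 (SD, n = 4 each). Within slide 1 the brightest probe differed by 0.08 (limma adjusted p = 0.513), and within slide 2 by 0.33 (limma adjusted p = 0.0194). With the mean of its kept probes in place of the brightest, Csf1r differed by 0.06 (limma adjusted p = 0.539), so the call for Csf1r rests on the choice of probe. Which transcripts each probe reads was not tested.

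**Figure D2:**
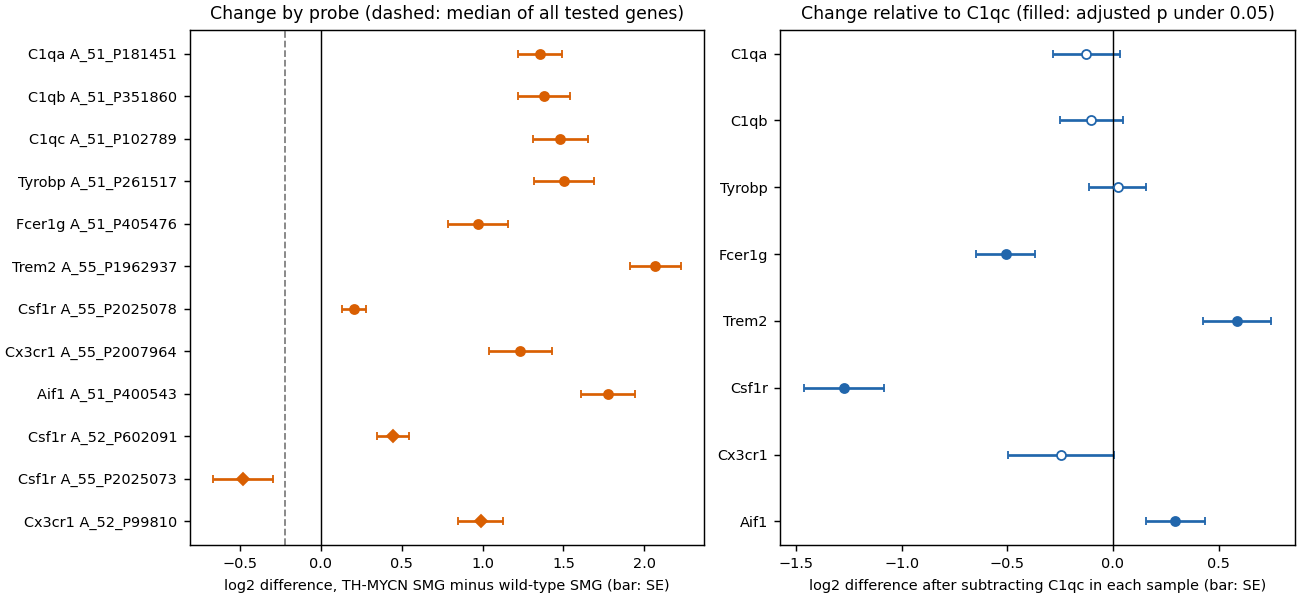
Left, log2 difference of each probe in TH-MYCN SMG minus wild-type SMG with its SE, diamonds being further probes of a gene; 1 Csf1r probe lies below 0 at -0.48, while the other 11 lie between 0.21 and 2.07. Right, the difference after the level of C1qc was subtracted in each sample; filled points had an adjusted p under 0.05, among them Trem2 at 0.59 and Csf1r at -1.27.

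To see which genes moved by another amount than the C1q chains, the level of C1qc was subtracted within each sample and every gene was fitted again. C1qa (-0.13, SE 0.16, limma adjusted p = 0.436), C1qb (-0.10, SE 0.15, limma adjusted p = 0.504), Tyrobp (0.02, SE 0.14, limma adjusted p = 0.870) and Cx3cr1 (-0.25, SE 0.25, limma adjusted p = 0.339) did not differ from C1qc beyond their error. Trem2 rose by 0.59 more than C1qc (SE 0.16, limma adjusted p = 0.00184), in a fit that called 3.88% of all genes higher than C1qc in their change. Aif1 exceeded it by 0.30 (SE 0.14, limma adjusted p = 0.0472), a call that was lost in 12 of 16 fits without 1 sample. Fcer1g rose by less (-0.51, SE 0.14, limma adjusted p = 0.00167), as did Csf1r (-1.27, SE 0.19, limma adjusted p = 2.43e-06). A smaller change than that of C1qc was the rule, called for 92.5% of all genes.

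Other genes of the same signalling route were counted next. Of 19 tested genes around the ITAM adaptors 8 were higher and 1 was lower in TH-MYCN SMG, with a median of 0.26. Vav1, a signalling protein of blood cells, rose by 0.95 (SE 0.15), Fcgr4, an Fc receptor that pairs with Fcer1g, rose by 0.92 (SE 0.25), and the Src-family kinase Lyn rose by 0.70 (SE 0.15). Clec4d, a C-type lectin receptor that also uses Fcer1g, fell by 0.69 (SE 0.28, limma adjusted p = 0.0412). Under normexp background correction the list had 4 genes higher and 3 lower with a median of 0.03, and with the median gene set to no difference 11 higher and 0 lower.

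Of the 4 ligands of these receptors 3 were called lower and 1 higher, where 43.8% of all tested genes were lower and 21.9% higher. Csf1 averaged 0.37 ± 0.38 in TH-MYCN SMG and 1.06 ± 0.31 in wild-type SMG (SD, n = 8 each), and fell by 0.69 (SE 0.16, limma adjusted p = 0.00160). Il34 fell by 0.54 (SE 0.11, limma adjusted p = 0.000492) and Apoe, a lipid carrier that Trem2 binds, fell by 0.42 (SE 0.09, limma adjusted p = 0.000775). Cx3cl1, the ligand of Cx3cr1, rose by 0.64 (SE 0.17, limma adjusted p = 0.00373). With the median gene set to no difference 1 of the 4 was called higher and 2 lower.

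In the rest of the complement pathway more genes were lower than higher, as among all tested genes. Of 21 tested complement genes 2 were higher and 14 were lower, with a median of -0.74. Of all tested genes 21.9% were higher and 43.8% lower. The proteases that C1q activates fell: C1ra by 0.76 (SE 0.15) and C1s1 by 0.61 (SE 0.13). C3, on which the complement pathways converge, fell by 1.17 (SE 0.36, limma adjusted p = 0.00989), Serping1, the inhibitor of C1r and C1s, fell by 1.05 (SE 0.14) and Cd59a, which blocks the terminal pore, fell by 1.01 (SE 0.14). The 2 that rose were Itgax, a chain of complement receptor 4, by 2.22 (SE 0.16, limma adjusted p = 7.13e-09), and C3ar1, the C3a receptor, by 0.94 (SE 0.23, limma adjusted p = 0.00187). Under normexp 1 was higher and 15 lower, and with the median gene set to no difference 3 were higher and 12 lower.

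Other macrophage genes split. Of 28 tested 11 were higher and 6 lower, with a median of 0.25. Ms4a7, a membrane protein of macrophages, rose by 3.18 (SE 0.20), Mpeg1, a pore protein of phagosomes, by 2.27 (SE 0.16) and the lysosomal protease Ctss by 1.64 (SE 0.16). Among the 6 lower were Mrc1, the mannose receptor (-0.79, SE 0.12), the hyaluronan receptor Lyve1 (-0.89, SE 0.38, limma adjusted p = 0.0476) and Cd14 (-0.75, SE 0.14). Adgre1, an adhesion receptor widely used to mark mouse macrophages, differed by -0.24 (SE 0.17, limma adjusted p = 0.211), and Ptprc, which all leukocytes carry, by 0.55 (SE 0.25, limma adjusted p = 0.0656). The split depended on the scaling, with 7 higher and 9 lower under normexp and 15 higher and 3 lower with the median gene set to no difference. Mrc1, Cd14, Lyve1, Adgre1, Ptprc, C1ra, C1s1, C3ar1 and Olfml3 were picked out after their values were seen.

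Of 8 myeloid transcription factors 3 were higher and 2 were lower. Tfec was not well above background in any wild-type SMG and was kept through the TH-MYCN SMG, so its being higher, by at least 1.99-fold, follows from how it was kept. Irf8 rose by 0.95 (SE 0.14) and Nr1h3, the liver X receptor alpha, by 0.46 (SE 0.11), while Cebpb fell by 0.83 (SE 0.18). Under normexp 2 were higher and 2 lower, with a median of -0.16 against 0.37. Of 7 genes held to mark microglia, P2ry13 (1.16, SE 0.22) and Gpr34 (0.81, SE 0.23) rose and Tmem119 (-0.77, SE 0.14), P2ry12 (-0.63, SE 0.17) and Olfml3 (-0.33, SE 0.11) fell.

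Markers of the other cell types of a ganglion were set beside these genes. Lower and never higher were 6 of 7 mast cell genes (median -1.44), 6 of 8 lymphocyte genes (-0.89), 4 of 8 monocyte and neutrophil genes (-0.80), 9 of 12 Schwann and satellite glia genes (-0.97) and 8 of 9 endothelial genes (-0.60), where 43.8% of all genes were lower. With the median gene set to no difference the lower calls were 6 of 7, 4 of 8, 3 of 8, 9 of 12 and 4 of 9 for these lists in that order. Mcpt4, a mast cell protease, fell by 2.45 (SE 0.26), and mast cells also carry Fcer1g, in their IgE receptor. Ccr2, the receptor of circulating monocytes, fell by 0.72 (SE 0.17). Of 7 dendritic cell genes, Batf3 rose by 1.87 (SE 0.21) and Ccr7 and Flt3 fell, by 1.35 and 0.86. Sympathetic neuron genes had 1 higher and 6 lower of 8. Fibroblast genes had 1 higher and 8 lower of 10 (5 lower with the median gene set to no difference). All 10 mitosis genes were higher with a median of 5.67, and 8 of them were well above background in at least 4 wild-type SMG. Of the 4 lower monocyte and neutrophil genes 3 were well above background in at least 4 TH-MYCN SMG. The others of these 2 lists were kept through 1 group alone, so their direction follows from how they were kept. The part of these shifts in the levels of the macrophage and C1q genes was not tested.

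**Figure D3:**
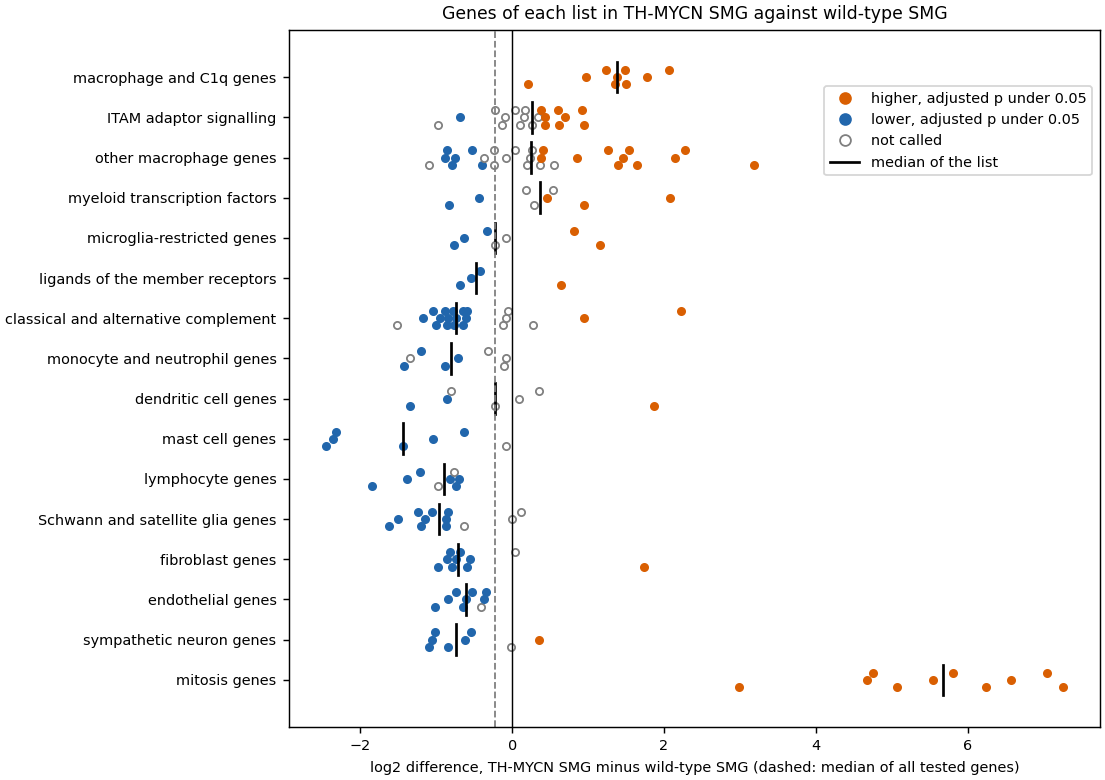
Log2 difference of every tested gene of each list in TH-MYCN SMG minus wild-type SMG; orange points were called higher, blue points lower, open points not called, and black bars are list medians. The 9 macrophage and C1q genes have a median of 1.38, beside 0.25 for other macrophage genes, -0.74 for complement genes and -0.22 for all tested genes (dashed line). Genes and lists were chosen with earlier results of these data known.

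Within the groups the genes varied together to different degrees. After each group's mean was subtracted, Pearson's r with the mean of the 9 genes across the 16 SMG was 0.94 for Tyrobp, 0.93 for C1qc, 0.91 for C1qb, 0.89 for Aif1 and for Fcer1g, 0.85 for C1qa and 0.78 for Trem2, each of which is part of that mean. Csf1r at 0.41 and Cx3cr1 at 0.34 followed it least. Over the 36 pairs of genes r ran from 0.03 to 0.93 with a median of 0.65. Outside the 9, the genes closest to their mean over those 16 samples were Hddc3 (0.95), Emg1 (0.94), Ngdn (0.94), Nxt1 (0.92), Slc15a3 (0.92), Gm5796 (0.92), Ak6 (0.92), Srek1ip1 (0.92), Nip7 (0.92) and Kif18a (0.92). These samples share slides and a common scaling within each array, and the values are given as a description. Over all 28 samples the genes closest to C1qa included Vav1, Ctss, Gpr65, Cyth4, Lilrb4a, Abi3, Gngt2, Lyz2 and Ly86, with r of 0.99 each, a figure set mostly by the gap between ganglia and spheres.

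Among the 8 TH-MYCN SMG, levels of several genes ran with the mean level of 10 mitosis genes, a relation looked at after the data were seen. TH-MYCN SMG 4 had the lowest mitosis score, 0.42, where the other ganglia had 1.26 to 2.58. For Fcer1g Pearson's r was 0.93 (exact permutation p = 6.45e-04, n = 8) and Spearman's rho 0.98 (exact permutation p = 3.97e-04, n = 8; limma adjusted p of the slope over all genes = 0.00235), and r was 0.86 without the 2 ganglia farthest from the median score, SMG 4 and 7. For C1qc r was 0.92 (exact permutation p = 0.00250, n = 8), rho 0.95 (exact permutation p = 0.00114, n = 8; limma adjusted p of the slope = 0.00302), and r without those 2 was 0.75. These are 2 of 9 relations computed. Aif1 had an r of 0.90 and 0.73 without the 2. Tyrobp (0.87, and 0.51 without the 2), Trem2 (0.86 and 0.50), C1qb (0.77 and 0.27) and C1qa (0.66 and -0.26) rested more on those ganglia, as did Cx3cr1 (0.60 and 0.05). Csf1r had an r of 0.05, and -0.71 without the 2.

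In a fit of every gene's slope on that score, 6 of the 9 genes had a positive slope at an adjusted p under 0.05 (limma), as did 17.9% of all tested genes. The 6 were C1qb, C1qc, Aif1, Tyrobp, Fcer1g and Trem2. Without TH-MYCN SMG 4 there were 3 (C1qc, Aif1 and Fcer1g, against 13% of all genes), and with the slide as a block 8 (all but Csf1r, against 20.5%). Within slides 1 and 2, with 4 ganglia each, r was 0.92 and 0.99 for Fcer1g, 0.93 and 0.97 for C1qc, 0.98 and 0.88 for C1qa, 0.92 and 0.82 for Aif1 and 0.86 in each for Cx3cr1. It was lower in slide 2 for Trem2 (0.93 and 0.72), Tyrobp (0.94 and 0.64) and C1qb (0.98 and 0.42), and Csf1r had 0.55 and 0.29.

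**Figure D4:**
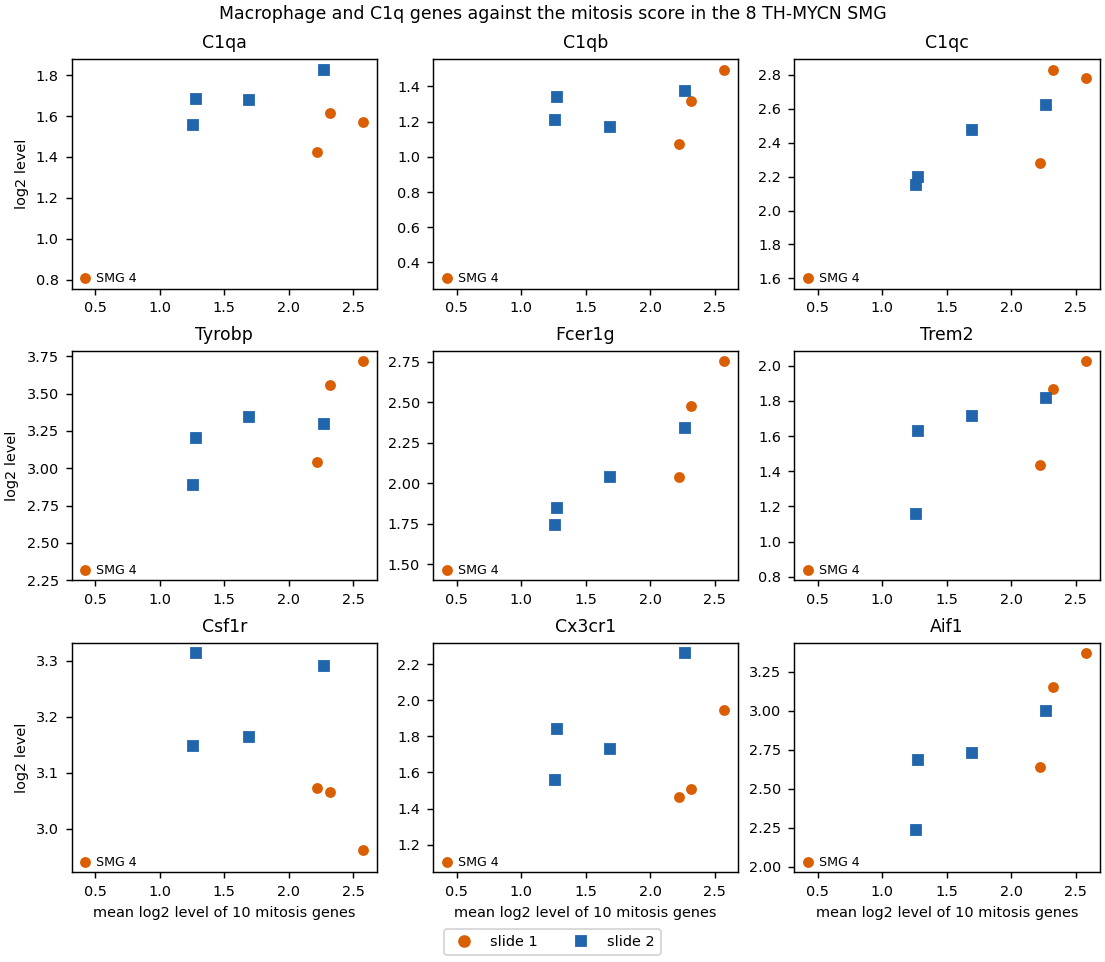
Level of each of the 9 genes (log2, relative to the 75th percentile of the array) against the mean level of 10 mitosis genes in the 8 TH-MYCN SMG, with slide 1 as circles and slide 2 as squares. Fcer1g and C1qc run with the score over the whole range (r of 0.93 and 0.92), while for C1qa the relation without SMG 4 and 7 was -0.26. Within slide 1, which holds SMG 4, r for C1qa was 0.98, and within slide 2, which holds SMG 7, it was 0.88.

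The second comparison set primary spheres against TH-MYCN SMG, to see which of these genes were still read once cells of the ganglion had been grown as spheres. Ganglia and spheres were on different slides, so growth as spheres and slide cannot be told apart here. All 9 were lower in primary spheres with no overlap (limma, adjusted p under 0.05), where 32.9% of all 15637 tested genes were called lower, 50.3% higher and 83.2% either way, and 23.3% were lower and 34.6% higher without overlap. Only C1qb, Fcer1g and Csf1r were well above background on all 8 sphere arrays. The other 6 genes were kept through the TH-MYCN SMG, so their being lower follows from how they were kept. The size of the differences depended on the processing: the median over the 9 genes was -8.61, and -4.45 under normexp.

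C1qb read -4.27 to -3.54 in primary spheres, against 0.31 to 1.50 in TH-MYCN SMG, and its difference was -5.09 (SE 0.16, limma adjusted p = 3.19e-14), or 34.0-fold lower. Fcer1g read -3.40 to -2.85 in primary spheres, against 1.46 to 2.75 in TH-MYCN SMG, and its difference was -5.23 (SE 0.16, limma adjusted p = 2.01e-14), or 37.5-fold lower. Csf1r read -0.79 to 0.11 in primary spheres, against 2.94 to 3.31 in TH-MYCN SMG, and fell by 3.59 (SE 0.13, limma adjusted p = 1.36e-13) or 12.0-fold. Over the alternatives the smallest differences were -3.52 for C1qb and -4.13 for Fcer1g. Each of the 3 probes kept a signal in every primary sphere. A further Csf1r probe, A_52_P602091, fell by 4.01 and was well above background in 1 sphere. The probe A_55_P2025073 rose instead, by 0.57 (SE 0.12, limma adjusted p = 0.000453), with -1.06 to -0.51 in primary spheres against -1.84 to -0.94 in TH-MYCN SMG. Retained signal therefore differed between probes of 1 gene.

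The other chains of C1q were not well above background in any primary sphere. In them C1qa was lower by at least 126-fold and C1qc by at least 226-fold. Both bounds count against the lowest signal well above background on each sphere array, which stood at levels of -6.11 to -5.22. They hold for the main processing only. Over the alternatives the smallest log2 differences were -4.68 for C1qa and -5.47 for C1qc, where the bounds in log2 are 6.97 and 7.82. By its brightest probe Cx3cr1 was lower by at least 140-fold, while its probe A_52_P99810 was well above background in primary sphere 6 alone, at -5.13. For Cx3cr1 the smallest log2 difference over the alternatives was -4.44, where its bound in log2 is 7.13. C1qb thus read above background in spheres in which C1qa and C1qc, the other chains of the same molecule, did not.

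Aif1, Tyrobp and Trem2 were each well above background in 1 primary sphere. Tyrobp read -4.28 in primary sphere 6 and -7.77 to -7.39 in the other 7, and Trem2 read -4.07 in primary sphere 6 and -7.43 to -7.18 in the other 7. Aif1 read -4.94 in primary sphere 4 and -7.82 to -6.83 in the other 7. The receptor Trem2 and its adaptor Tyrobp were thus read in the same culture, and Aif1 in another. Their fitted differences were -10.32 (SE 0.41) for Tyrobp, -9.86 (SE 0.34) for Aif1 and -8.46 (SE 0.40) for Trem2, and rest on signals below background in 7 of 8 spheres. Across 69 genes of the adaptor, macrophage and transcription factor lists and the 9 genes, primary sphere 6 alone was well above background for 4: Trem2, Tyrobp, Btk (-4.91), a kinase downstream of ITAM receptors, and Ms4a7 (-5.09). No other primary sphere was alone in more than 2. Each primary sphere was read on 1 array, and that of sphere 6 was the brightest of the 8, with a 75th percentile of 564. It also had the largest share of spots well above background, 59.7%. The part of these was not tested.

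The wider lists were read against the same limit. Of 27 tested other macrophage genes 8 were well above background in at least 4 primary spheres, as were 3 of 8 myeloid transcription factors, 6 of 18 ITAM genes and 8 of 20 complement genes; the rest were kept through the TH-MYCN SMG, so their being lower follows from how they were kept. With that limit, 26 of the 27 macrophage genes were lower (median -3.82, or -1.44 under normexp), as were all 8 transcription factors (-3.22, or -0.97) and 16 of the 18 ITAM genes (-3.36, or -0.62). Ctss was at least 475-fold lower, Mpeg1 at least 192-fold and Vav1 at least 44.1-fold. The 2 ITAM genes read higher in spheres were Trem1 (0.65, SE 0.13) and Siglech (0.64, SE 0.13). Of 20 complement genes 17 were lower, among them C1s2 by at least 163-fold and C1s1 by at least 101-fold, and Calr and Itgam were higher, by 0.73 and 0.27. Under normexp the other macrophage genes had 3 higher and 23 lower, the ITAM genes 3 and 9, and the transcription factors 1 and 6. The 4 ligands were all lower, with differences of -5.85 (SE 0.49) for Apoe, -4.24 (SE 0.22) for Il34, -2.73 (SE 0.17) for Cx3cl1 and -1.61 (SE 0.15) for Csf1, each still well above background in every primary sphere. Fibroblast genes fell in 9 of 10 (median -7.12) and glial genes in 10 of 12 (-3.43), while all 10 mitosis genes rose (1.64). Well above background in at least 4 primary spheres were 4 of the 9 lower fibroblast genes and 8 of the 10 lower glial genes. The rest of these were kept through the TH-MYCN SMG, so their being lower follows from how they were kept.

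**Figure D5:**
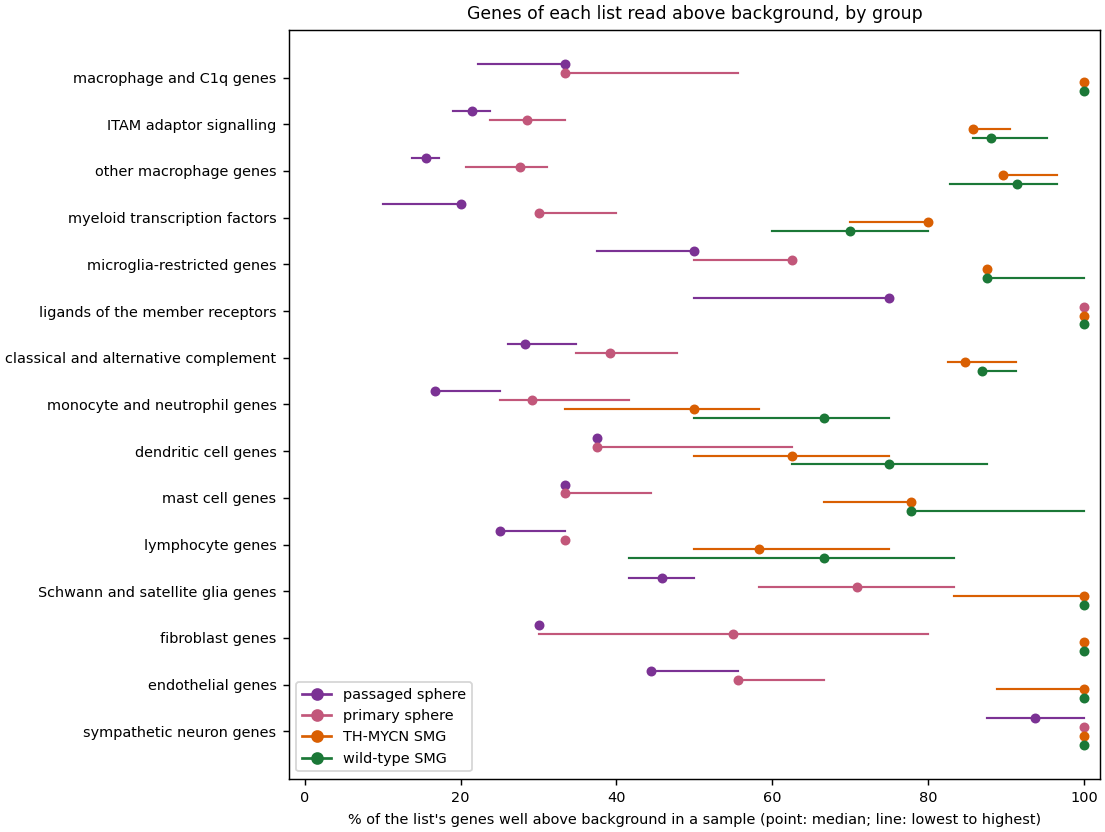
Share of each list's genes that were well above background in a sample, as the median (point) and range (line) of each group. The 9 macrophage and C1q genes were all read in every ganglion, with a median of 3 in primary spheres and 3 in passaged spheres, while 8 of 8 sympathetic neuron genes were read in every primary sphere.

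The third comparison set passaged against primary spheres. Only C1qb, Csf1r and Fcer1g were bright enough to test, and 0 of the 3 were called (limma, adjusted p under 0.05), where 11.7% of 14150 tested genes were called in either direction, 5.17% higher and 6.54% lower, and 4.66% were higher and 4.52% lower without overlap. At an unadjusted p under 0.05 there was 1, Fcer1g. C1qb read -3.82, -3.95, -4.04 and -3.69 in passaged spheres 1 to 4, against -4.27 to -3.54 in primary spheres, a difference of 0.05 (SE 0.15, limma adjusted p = 0.853). Fcer1g read -3.64, -3.14, -3.64 and -3.44 in passaged spheres, against -3.40 to -2.85 in primary spheres, a difference of -0.33 (SE 0.13, limma adjusted p = 0.109). Csf1r read -0.46, -0.49, -0.14 and -0.22 in passaged spheres, against -0.79 to 0.11 in primary spheres, a difference of 0.14 (SE 0.17, limma adjusted p = 0.618). All 3 overlapped between the groups, and C1qb was well above background on 7 of the 8 passaged sphere arrays.

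The remaining 6 genes, C1qa, C1qc, Aif1, Tyrobp, Trem2 and Cx3cr1, were not well above background in any passaged sphere, whose arrays had their lowest signal well above background at levels of -5.12 to -4.28. Of 9 tested other macrophage genes 1 rose with passage and 2 fell, Lgals3, a galectin, by 2.55 (SE 0.63, limma adjusted p = 0.0239) and the lysosomal protease Lgmn by 0.34 (SE 0.09, limma adjusted p = 0.0400). Under normexp 1 was higher and 0 were lower. Cx3cl1, the ligand of Cx3cr1, was not well above background in any passaged sphere and was kept through the primary spheres, so its being lower, by at least 1.88-fold, follows from how it was kept, and under normexp 0 of the 4 ligands were called. Csf1 (0.36, SE 0.12), Il34 (-0.92, SE 0.30) and Apoe (-1.86, SE 0.70) were not called.

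Set in order, the 7 genes that did not overlap between ganglia were highest in TH-MYCN SMG, then in wild-type SMG, and lowest in both kinds of sphere. Between the spheres no difference was called for the 3 genes tested, and the 6 genes below background there have no order. For Fcer1g, and for Csf1r by its brightest probe, the 2 kinds of ganglion overlapped, and both stood above the spheres. The Csf1r probe A_55_P2025073 did not follow that order.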

How the data were processed

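RNA of integrity number over 8 was labelled with Cy3 from 40 or 200 ng, per the labels; the amount for each sample is not stated there. Scans were quantified in Agilent Feature Extraction 11.5.1.1, per the file headers, and the authors deposited per spot a processed intensity, already background-subtracted and detrended within the array, with flags. The authors' deposited log2 value table equals the values used here less a constant per probe for 99.9% of values within 0.05; the centring stays unknown, and it served as an alternative.

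Main values were log2 processed intensity minus the array's 75th percentile. Control and outlier-flagged spots (109 to 211 per array) were left out, none was saturated, and spots of a probe were averaged. Of 55681 probes 27235 were named through RefSeq accessions (GRCm38.p6), and 28446 unnamed ones were left out. A probe was kept if well above background in at least 4 samples of a comparison, counting a passaged culture if both arrays were, and a gene was read by its brightest kept probe. A probe missing a value in a compared sample was not tested. Pairs of groups were fitted in limma 3.58.1 (lmFit, eBayes, two-sided) in R 4.3.3, with Benjamini-Hochberg adjustment over all tested genes. "At least N-fold" sets the brighter group's mean against the mean, over the dimmer group's arrays, of the higher of the probe's signal and the lowest signal well above background. Such bounds hold for the main processing only. The number of arrays limits the precision.

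The genes, the gene lists and the rule for naming genes (from each list up to 4 called genes with the largest difference, well above background in all samples of the brighter group, and all ligands) were chosen with earlier results of these data known. Values of a few list genes are not reported here. Replicate numbers were not taken as pairing the samples, since no label says so and not every same-numbered pair deviated together. The fits were tested on simulated data with known changes. Alternatives covered background correction, normalization, scaling, filters, probe choice, samples, slide, replicate number and leaving out each sample.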

Additional observations from a re-analysis of the deposited data

Results flagged for a closer look

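Of 48 sets of levels (12 probes in 4 groups), 6 held 1 sample that stood apart from the rest of its group by more than Dixon's criterion, which chance passes in about 1 of 20. TH-MYCN SMG 4 was the lowest for C1qa, at 0.81 with the next at 1.42, and for C1qb, at 0.31 with the next at 1.07. That ganglion also had the lowest mitosis score and the brightest array of its group, with a 75th percentile of 1358; their part was not tested, and without it C1qa differed between the ganglia by 1.46 and C1qb by 1.50, where all samples gave 1.35 and 1.38. Primary sphere 6 was the highest for Tyrobp, at -4.28 with the next at -7.39, for Trem2, at -4.07 with the next at -7.18, and for the Cx3cr1 probe A_52_P99810, at -5.13 with the next at -7.19. That sphere also had the brightest array of its group, with a 75th percentile of 564, whose part was not tested. Primary sphere 4 was the highest for Aif1, at -4.94 with the next at -6.83.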

How the results depend on the processing

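The macrophage and C1q genes kept their counts in nearly all alternatives. In TH-MYCN SMG against wild-type SMG 8 or 9 of the 9 were called in each of 14 alternatives and 9 to 9 when each sample was left out. In primary spheres against TH-MYCN SMG the counts were 9 in each of 12 and 9 to 9. In that comparison C1qa, C1qc, Aif1, Tyrobp, Cx3cr1 and Trem2 were kept through the TH-MYCN SMG. Their being lower follows from how they were kept, so their steady count is no support. In passaged against primary spheres 0 were called in 15 of 16 alternatives and 0 to 0 with a sample left out; without the filter on dim probes 1 was, C1qc (0.79, adjusted p = 0.000790), which was not well above background in either group. Relative to C1qc, 3 to 4 genes differed with a sample left out. Csf1r was not called in the ganglia with the mean of its probes (0.06), in a fit of all 4 groups (0.21, adjusted p = 0.0922) or within slide 1 (0.08), and its probe A_55_P2025073 went the other way in both comparisons, with -0.48 and 0.57. The cause was not tested. Normexp shrank the differences to the spheres, that of C1qa to -4.68 and that of Tyrobp to -6.20. With replicate number as a block (replicate block) 9, 9 and 0 of the genes were called, and Aif1 relative to C1qc was not (0.30, adjusted p = 0.0965), nor was it when slides were blocked (adjusted p = 0.0544). Same-numbered samples correlated at -0.01 to 0.37, -0.08 to 0.15 and -0.01 to 0.21, with 4 of 8, 1 of 8 and 3 of 4 closest to their own number, a hint from the data and not from the labels.

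Over all genes the counts of higher and lower calls were 3467 and 6924 in the ganglia, against 5165 and 4149 with the median gene set to no difference, and 7859 and 5149 in primary spheres, against 5898 and 6312. In passaged spheres 1656 genes were called, against 984 with normexp, 5286 without a filter, 952 with the replicate block, 1032 and 989 within slides 3 and 4, 811 without passaged sphere 2 and 785 without passaged sphere 4. In passaged spheres 49.0% to 53.9% of spots were well above background, which limits what can be read of dim genes there.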
